A study of Mus musculus with 42 samples.

Results

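Cd36 and 5 other genes of lipid uptake and intracellular lipid carriage, Scarb1, Scarb2, Fabp5, Fabp7 and Apoe, were followed through the main olfactory epithelium of mice that smelled different foods. The 6 members were chosen by name, as receptors, carriers and a lipoprotein of this pathway, out of 44674 genes in the quantification, and all 6 passed the filter on low counts. The choice was made with earlier results of these data known. The mice were adult males of the C57BL/6NCrl strain with no transgene, and were exposed for 1 h to no odour, to the odour of normal chow diet (NCD), to that of a chow carrying bacon flavour (Bacon) or to that of a lard-based high-fat diet (HFD). Each pool held 4 epithelia, and there were 5 pools without odour, 6 of NCD, 5 of Bacon and 5 of HFD. A pair of libraries was sequenced from each pool. One came from ribosomes captured with an antibody against phosphorylated ribosomal protein S6, a mark of recently active neurons, and is called the pulldown. The other came from the whole homogenate before capture and is called the input. The comparisons address how much of each transcript lay on phosphorylated ribosomes, and whether 1 h of a food odour moved it.

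CD36 is a membrane receptor that binds long-chain fatty acids and oxidised lipoproteins, and it is known from a subset of mouse olfactory sensory neurons. Scarb1 encodes SR-BI, the receptor for high-density lipoprotein, and Scarb2 encodes LIMP-2, the lysosomal member of the same family. Inside the cell, fatty acids are carried by small fatty acid-binding proteins, among them the epidermal form encoded by Fabp5 and the brain form encoded by Fabp7, the latter a known product of radial glia and olfactory ensheathing glia. Apolipoprotein E, the product of Apoe, carries lipids between cells and is made in quantity by macrophages and glia.

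Fabp5 and Fabp7 are paralogues that behaved differently in these libraries. The most similar stretch of their coding sequences is shown to let a reader see how far reads of the pair can be told apart. It holds coding bases 31 to 120 of Fabp5 and 25 to 114 of Fabp7. These 90 bases had the most matches in a gap-free alignment of the reference transcripts of GRCm38. Capitals mark the 33 bases at which the genes differ.
Fabp5: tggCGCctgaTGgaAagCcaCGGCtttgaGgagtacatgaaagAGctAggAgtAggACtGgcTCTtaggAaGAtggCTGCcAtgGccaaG
Fabp7: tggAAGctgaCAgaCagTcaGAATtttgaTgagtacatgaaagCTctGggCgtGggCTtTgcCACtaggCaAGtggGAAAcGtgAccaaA
Over the 396 coding bases compared, 54.5% were identical and the longest identical run was 13 bases, shorter than the 31-base words with which Salmon matches reads. Of the 31-base words in the exons of Cd36, Fabp7 and Apoe, 0% occurred in another gene, against 0.942% for Scarb1 and 0.576% for Scarb2. Fabp5 shared 9.27% of its words with other genes, 7.24% with the predicted gene Gm6166, so its counts are the least certain of the 6.

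In GRCm38, the 3 receptor genes lie on chromosome 5 on the minus strand: Cd36 (ENSMUSG00000002944) at 17781690 to 17888801, Scarb2 (ENSMUSG00000029426) at 92441314 to 92506833, and Scarb1 (ENSMUSG00000037936) at 125277087 to 125341094. Fabp5 (ENSMUSG00000027533) lies on chromosome 3 at 10012548 to 10016607 and Fabp7 (ENSMUSG00000019874) on chromosome 10 at 57784881 to 57788450, both on the plus strand. Apoe (ENSMUSG00000002985) lies on chromosome 7 at 19696109 to 19699188 on the minus strand. Counts were summed over each gene's exons. Gm42633, on the strand of Scarb1 and overlapping it, held a mean of 9.95 counts a library against 513.4 for Scarb1, and the microRNA gene Mir6415 overlaps Scarb2 on the opposite strand.

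The pulldown libraries held 25392812 to 36738330 counts and the inputs 24839555 to 36781553. Ribosomal RNA took 21.7% to 32.2% of the input counts without odour (median 27.8%) and 9.75% to 21.9% with any odour (14.2%). In the pulldowns it took 14.6% to 28.5% (26.8%) and 10.7% to 21.7% (14.1%). This share moved with the odour groups in both kinds of library, and members that differed between no odour and odour are also given below with the share as a term in the model. Markers of mature olfactory sensory neurons summed to between 14445 and 18461 CPM, normalised counts scaled to a common library size, in every input, and those of supporting cells to between 7388 and 10106. Skeletal muscle markers were near 0, as were adipocyte markers (0.332 to 1.10 CPM in 19 inputs) except in the inputs of replicates 4 and 6 without odour, with 5.96 and 5.26 CPM. Most of the 5.96 CPM was Pck1, and the other 4 genes of that list averaged near the floor. A pair of libraries stood apart from the rest of their groups. The pulldown of Bacon replicate 1 held 4557 CPM of supporting cell markers against 1704 to 2762 in the other Bacon pulldowns, and 37.8 CPM of horizontal basal cell markers against 6.90 to 14.3. The input of replicate 4 without odour was the highest of its group in 5 of the 6 members, all but Scarb2. Where leaving out either ended a member's call, the value without it is given beside the result.

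Read per kilobase of exons, the members spanned a wide range in the tissue. The length used was that of all annotated exons, which need not be that of the transcript expressed. For Fabp5 it was 3567 bases, against 405 coding bases, so the order of genes depends on the annotation. In the inputs without odour, Apoe (94.7 ± 20.7 CPM per kilobase, SD, n = 5) and Fabp7 (87.7 ± 14.6) were highest, followed by Cd36 (23.3 ± 3.61), Scarb2 (15.0 ± 0.726), Fabp5 (5.04 ± 2.68) and Scarb1 (2.53 ± 0.198). Apoe and Fabp7 overlapped between pools and their order was not separated, whereas the other neighbours in this order did not overlap. In the pulldowns without odour the order was the same with other distances, Apoe at 88.4 ± 9.98, Fabp7 at 34.3 ± 0.764, Cd36 at 12.3 ± 0.980, Scarb2 at 11.1 ± 0.699, Fabp5 at 7.62 ± 0.646 and Scarb1 at 1.58 ± 0.176. Cd36 and Scarb2 overlapped between these pulldowns, and their order there was not separated. In bulk RNA, fewer cells of a type and less RNA per cell cannot be told apart. The pools are separate samples by their labels, and the p-values below measure the spread between them.

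Without odour, 4 of the 6 members were depleted from phosphorylated ribosomes, 1 was enriched and 1 was near parity. At adjusted p under 0.001, the threshold used throughout, 35.8% of all 21168 genes tested passed in this comparison, 16.0% as lower in the pulldown and 19.8% as higher. The median log2 ratio of the 6 members was -0.56, beside 0.01 over all genes.

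Cd36 fell below its tissue level in every pool. Its pulldown values without odour were 42.3, 40.8, 43.0, 45.3 and 49.8 normalised CPM, and the inputs of the same pools held 76.2, 74.8, 77.8, 106.1 and 82.8. No pulldown reached any input, and the fitted log2 ratio was -0.91 (SE 0.0777, adjusted p = 3.79e-10). Its relative Scarb1 had a log2 ratio of -0.68 (SE 0.0833, adjusted p = 1.213e-07), and the lysosomal Scarb2 one of -0.43 (SE 0.0568, adjusted p = 3.873e-07).

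The carriers went opposite ways. Fabp7 was the most depleted member, with pulldowns of 43.2, 42.7, 42.2, 41.8 and 44.2 CPM against inputs of 98.1, 107.4, 103.6, 141.4 and 97.6 (log2 ratio -1.34, SE 0.0835, adjusted p = 3.682e-12). Fabp5 had pulldowns of 28.2, 27.2, 25.7, 30.4 and 24.3 CPM against inputs of 12.1, 12.2, 12.4, 34.3 and 18.9. Fabp5 was higher in the pulldown in 4 of the 5 pools and lower in replicate 4, the input that stood apart, and its log2 ratio was 0.71 (SE 0.158, adjusted p = 0.000595). That call was lost in 7 of 30 alternative fits, among them those without replicate 1, 2 or 3, with log2 ratios of 0.58 to 0.61, and it was kept without replicate 4 (0.93, adjusted p = 4.05e-06). Apoe had pulldowns of 203.2, 206.5, 197.9, 183.5 and 154.3 CPM against inputs of 175.1, 201.5, 184.5, 279.1 and 172.8, a log2 ratio of -0.08 (SE 0.099, adjusted p = 0.486).

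Cell type markers set a scale for these ratios. Markers of mature sensory neurons had a median log2 ratio of 0.46, with 5 of 8 enriched, and macrophage markers one of 0.93, with 6 of 8 enriched. Endothelial markers (-0.71), ensheathing and Schwann glia (-0.81), supporting cells (-1.77, all 5 depleted) and horizontal basal cells (-2.29) were on the other side. By these medians Cd36 lay just below glia and endothelium, Fabp7 between glia and supporting cells, and Fabp5 between mature neurons and macrophages. Other lists were also higher in the pulldown. Erythroid markers summed to 1551 to 2250 CPM in the pulldowns without odour and 354 to 708 in the inputs. Those of immature sensory neurons summed to 922 to 1022 and 692 to 804. Read as sums in the same way, mature sensory neuron markers overlapped, at 15820 to 19340 CPM in the pulldowns and 14539 to 18461 in the inputs. Which cells held the members was not measured.

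**Figure D1:**
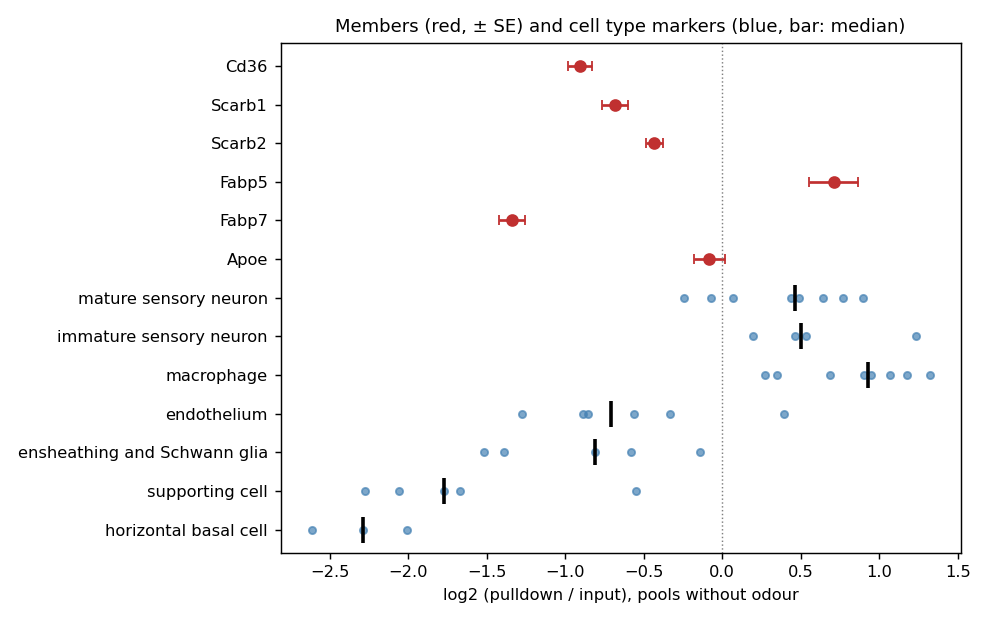
Log2 pulldown-to-input ratio of the pools without odour for the 6 members (red points, bars ± SE of the fit) and for single markers of 7 cell types (blue points, black bar the median of the list). Fabp7 at -1.34 and Cd36 at -0.91 lie left of the dotted line of equal level, Fabp5 at 0.71 lies right of it, and Apoe at -0.08 lies on it.

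After 1 h of odour, the 3 receptors of the CD36 family did not pass the test in any of the comparisons, in pulldown, input or ratio. Cd36 in the pulldown held 42.5, 51.0, 45.0, 45.7, 40.6 and 42.1 CPM with NCD, 57.7, 38.5, 43.8, 44.0 and 45.0 with Bacon, and 38.6, 39.6, 36.8, 40.4 and 42.3 with HFD. The HFD pools sat at the lower end and overlapped those without odour, and the highest value of all was that of Bacon replicate 1. The pulldown differed from no odour by a log2 change of -0.17 with HFD (adjusted p = 0.184).

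In the input, Cd36 held 82.4, 89.6, 96.3, 88.0, 89.5 and 94.7 CPM with NCD, 77.3, 78.5, 90.5, 87.2 and 81.5 with Bacon, and 78.6, 85.7, 89.9, 92.8 and 91.0 with HFD. All groups overlapped, and the 3 odours together differed from no odour by a log2 change of 0.06 (adjusted p = 0.538). For the pulldown-to-input ratio of Cd36, the log2 change from no odour was -0.11 with NCD (adjusted p = 0.524), 0.04 with Bacon (adjusted p = 0.844) and -0.24 with HFD (adjusted p = 0.139). The 3 odour comparisons share the pools without odour. Without Bacon replicate 1 the change with Bacon became -0.07. Set directly against Bacon, HFD had a ratio lower by a log2 difference of -0.28, which did not pass (adjusted p = 0.514).

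Scarb1, the least abundant member, held 11.3 to 15.2 CPM in the pulldown without odour and 9.77 to 15.3 with an odour, and 17.7 to 24.7 in all inputs. Scarb2 held 64.4 to 76.4 CPM in the pulldown without odour, 59.1 to 81.3 with an odour, and 82.0 to 100.7 in all inputs. Their ranges overlapped between all groups. The log2 changes of the ratio from no odour were -0.22, -0.01 and -0.11 for Scarb1 with NCD, Bacon and HFD, and 0.01, 0.04 and -0.01 for Scarb2.

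**Figure D2:**
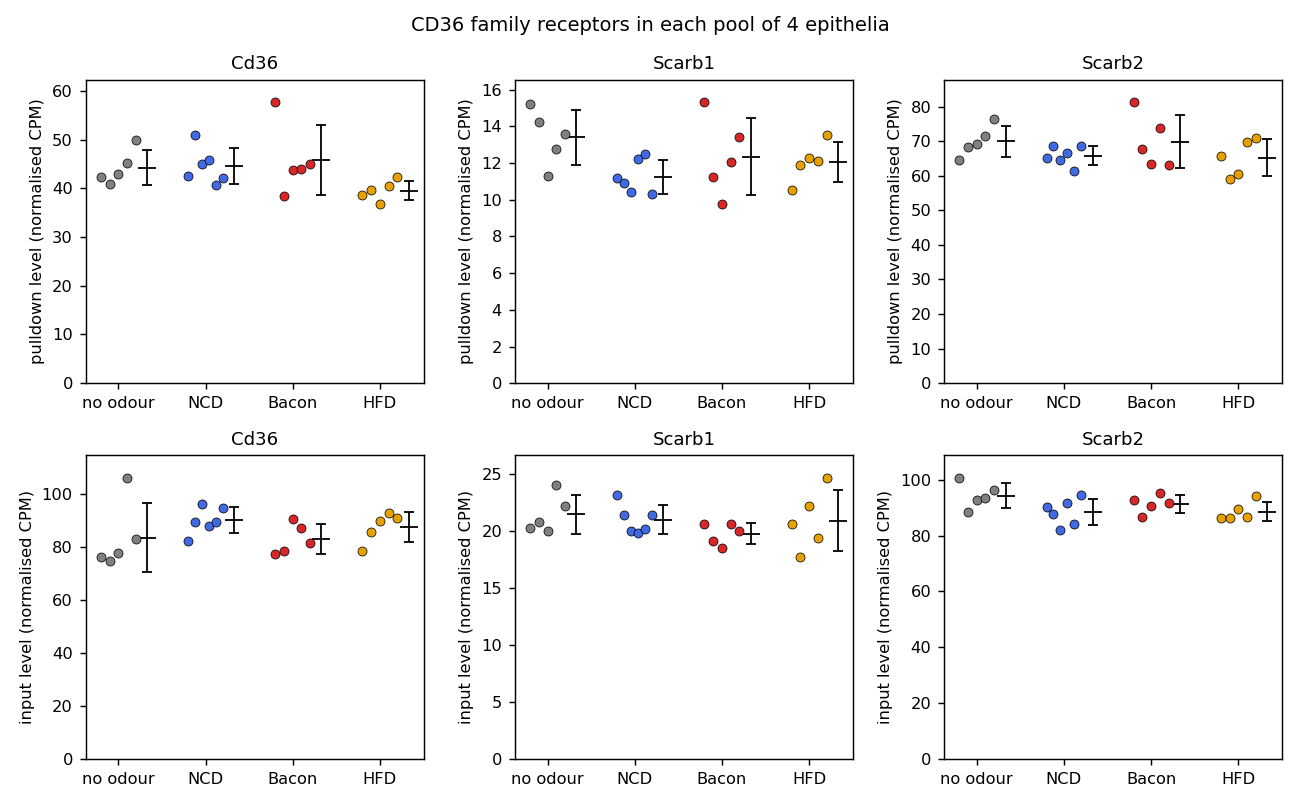
Normalised CPM of Cd36, Scarb1 and Scarb2 in the pulldown (upper row) and input (lower row) of each pool by odour, with the group mean and SD beside the points. The groups overlap in every panel, and the point at 57.7 CPM in the Cd36 pulldown panel is Bacon replicate 1.

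Fabp7 was the member that rose in the pulldown with HFD. There, HFD gave 78.7, 83.6, 74.4, 74.2 and 65.9 CPM, where the pools without odour had given 41.8 to 44.2. NCD gave 51.4, 57.5, 52.4, 52.4, 54.1 and 50.2, and Bacon gave 58.5 in replicate 1 and 43.9, 41.7, 42.2 and 41.4 in the others. Every HFD pool lay above every other pool of the series, every NCD pool lay above every pool without odour, and the Bacon pools other than replicate 1 lay beside those without odour.

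The log2 change of Fabp7 from no odour in the pulldown was 0.81 with HFD (SE 0.0816, adjusted p = 1.383e-07), 0.30 with NCD (SE 0.0784, adjusted p = 0.00916) and 0.10 with Bacon (adjusted p = 0.447). When ribosomal RNA share was a term, they were 0.74 (adjusted p = 0.000372), 0.24 (adjusted p = 0.25) and 0.04 (adjusted p = 0.907). Of all 19765 genes tested in the pulldown model, which was added after seeing the data, 5.00% passed with HFD, 4.11% with NCD and 4.22% with Bacon. Among members, 2 passed with HFD (Fabp7 and Apoe) and 1 each with NCD and Bacon (Apoe). HFD also exceeded Bacon by 0.71 (SE 0.0812, adjusted p = 4.962e-06), in a comparison where 0.304% of genes passed, and NCD by 0.51 (SE 0.077, adjusted p = 0.00027), where 0.283% passed. The groups did not overlap for HFD above no odour in 8.80% of genes, for NCD above no odour in 6.02%, for HFD above Bacon in 1.96% and for HFD above NCD in 1.80%. The difference from NCD fell just short of the threshold in 7 of the 21 fits that left out a pool, with adjusted p up to 0.00203, and the difference from Bacon missed it when only those groups were fitted (0.71, adjusted p = 0.00601). Without Bacon replicate 1, the difference of HFD from Bacon was 0.83 (adjusted p = 9.55e-11), that of Bacon from no odour was -0.02, and that of NCD from no odour, at 0.30, passed (adjusted p = 9.37e-05).

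In the input, Fabp7 went the other way. NCD gave 91.1, 97.5, 101.2, 86.9, 97.4 and 106.4 CPM, Bacon gave 72.6, 73.5, 76.7, 77.3 and 77.8, and HFD gave 91.7, 88.0, 94.7, 97.5 and 87.2. All Bacon pools lay below all others, as they did below no odour in 13.8% of genes, below NCD in 5.69% and below HFD in 2.68%. The HFD pools lay just below those without odour, as in 3.60% of genes. The log2 change was -0.54 with Bacon (adjusted p = 3.544e-05), -0.26 with HFD (adjusted p = 0.0238) and -0.18 with NCD (adjusted p = 0.085). With Bacon 13.7% of all genes passed in the input, and with ribosomal RNA share in the model the change was -0.31 and did not pass.

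The ratio of Fabp7 therefore rose with HFD through the pulldown, and with Bacon mostly through the lower input. Its log2 ratios were -1.18, -1.33, -1.30, -1.76 and -1.14 without odour and -0.22, -0.07, -0.35, -0.39 and -0.40 with HFD. They were -0.82, -0.76, -0.95, -0.73, -0.85 and -1.08 with NCD and -0.31, -0.74, -0.88, -0.87 and -0.91 with Bacon. All odour pools lay above all pools without odour, as did 5.01% of genes for HFD, 5.72% for NCD and 6.47% for Bacon. The HFD pools also lay above all NCD pools, as in 0.482% of genes.

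The change of the ratio from no odour was 1.05 with HFD (SE 0.116, adjusted p = 1.535e-06), 0.60 with Bacon (SE 0.117, adjusted p = 0.00073) and 0.48 with NCD (SE 0.111, adjusted p = 0.00748). Of all genes, 1.22% passed with HFD, 3.78% with Bacon and 0.524% with NCD, and Fabp7 was the member that passed with HFD and with Bacon. The HFD call held in all 30 alternative fits, and when ribosomal RNA share was a term its size was 1.02 (adjusted p = 2.71e-06). The Bacon call was lost in 18 of 30, among them the fit without Bacon replicate 1 (0.49, adjusted p = 0.00101), the fit without the no-odour replicate 4 (0.51, adjusted p = 0.00161) and the fit with the ribosomal RNA term (0.46, adjusted p = 0.0637). Between odours, none of the 6 members passed, in comparisons where 0.0236% (HFD against NCD), 0.0378% (HFD against Bacon) and 0.00945% (Bacon against NCD) of genes did. At an unadjusted 0.05, edgeR counted 1, 2 and 0 members in these comparisons, and DESeq2 called 1, 0 and 0 at the threshold. Fabp7 came nearest, with HFD above NCD by 0.58 (SE 0.110, adjusted p = 0.0251) and above Bacon by 0.45 (adjusted p = 0.189).

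The summed level of ensheathing and Schwann glia markers, from cells known to make Fabp7, overlapped between HFD and no odour. The 5 genes summed to 60.2 to 64.6 CPM in the HFD pulldowns, within the range of 48.5 to 65.8 without odour, and to 80.3 to 93.6 and 74.3 to 86.8 in the inputs.

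**Figure D3:**
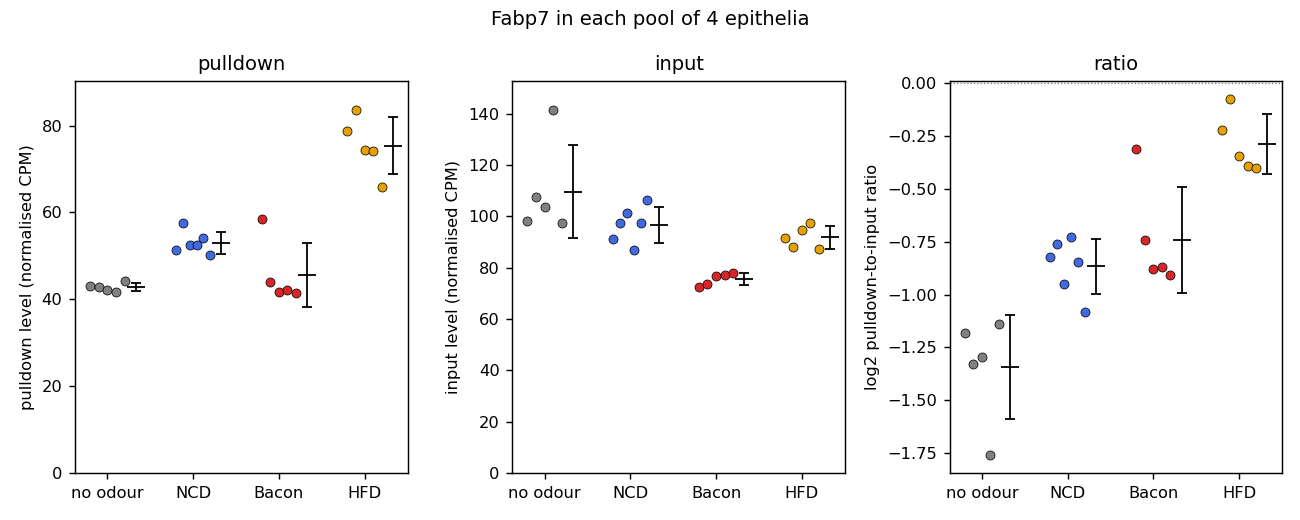
Fabp7 in each pool by odour, as normalised CPM in the pulldown and in the input and as log2 pulldown-to-input ratio, with the group mean and SD beside the points. The 5 HFD pools, at 65.9 to 83.6 CPM in the pulldown, lie above all others there, while in the input the Bacon pools, at 72.6 to 77.8 CPM, lie below all others.

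Apoe fell in the pulldown with each of the odours, by nearly the same amount. From 154.3 to 206.5 CPM without odour it came to 103.9, 102.2, 102.4, 99.0, 113.8 and 115.5 with NCD, 103.9, 102.2, 99.4, 102.3 and 99.7 with Bacon, and 109.6, 104.3, 109.3, 107.7 and 110.7 with HFD. No odour pool reached any pool without odour, and the spread between pools was several times smaller with an odour than without. The log2 change was -0.85 with NCD (adjusted p = 6.907e-10), -0.89 with Bacon (adjusted p = 6.491e-10) and -0.81 with HFD (adjusted p = 2.248e-09). Groups did not overlap in this direction for 4.85%, 4.59% and 7.59% of genes. With ribosomal RNA share in the model the changes were -0.66, -0.59 and -0.70, and all passed (adjusted p at most 5.1e-06).

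In the input Apoe was also lower, with a wider spread: 165.7, 139.1, 133.3, 130.8, 138.9 and 158.0 CPM with NCD, 111.4, 122.5, 99.1, 132.7 and 128.7 with Bacon, and 143.9, 96.2, 151.9, 160.3 and 183.0 with HFD. The pools of NCD and Bacon lay below all those without odour, as in 4.77% and 13.8% of genes, and HFD overlapped them. The log2 change was -0.77 with Bacon (adjusted p = 0.000309), -0.49 with NCD (adjusted p = 0.0138) and -0.46 with HFD (adjusted p = 0.025). The Bacon call was lost without the no-odour replicate 4 (-0.64, adjusted p = 0.00138) and without Bacon replicate 1 (-0.75, adjusted p = 0.00124), and with the ribosomal RNA term the input changes turned to 0.12, 0.18 and 0.20 with Bacon, NCD and HFD. Without that term pulldown and input moved the same way. The ratio did not pass, with log2 changes of -0.36 (adjusted p = 0.0776), -0.14 and -0.33 (adjusted p = 0.114) for NCD, Bacon and HFD. Leaving out the no-odour replicate 4 gave -0.48 (adjusted p = 0.0151), -0.26 (adjusted p = 0.171) and -0.45 (adjusted p = 0.0203), which did not pass either. The 8 macrophage markers moved with Apoe. They summed to 109 to 153 CPM in the pulldowns without odour, against 70.5 to 87.4 with NCD, 56.7 to 84.8 with Bacon and 74.6 to 79.0 with HFD, and in the inputs to 57.0 to 77.0 against 45.3 to 58.1 with any odour. Their part in the Apoe result was not tested.

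Fabp5 was lower with odour in both libraries. In the pulldown it held 24.3 to 30.4 CPM without odour, then 19.2, 17.3, 23.3, 20.7, 21.3 and 24.7 with NCD, 12.5, 22.6, 20.3, 17.6 and 20.9 with Bacon, and 22.1, 22.1, 20.1, 19.0 and 18.7 with HFD. Bacon and HFD did not overlap the pools without odour, as in 4.59% and 7.59% of genes, NCD did in 1 pool, and the lowest value was again that of Bacon replicate 1. None of the pulldown changes passed, at -0.38 with NCD (adjusted p = 0.0137), -0.53 with Bacon (adjusted p = 0.00157) and -0.42 with HFD (adjusted p = 0.00876). Without Bacon replicate 1 all 3 single odours passed, at adjusted p = 0.000781 with NCD, 0.000731 with Bacon and 0.000402 with HFD. When ribosomal RNA share was a term none of the 3 passed, at -0.34 (adjusted p = 0.223), -0.49 (adjusted p = 0.0647) and -0.37 (adjusted p = 0.196).

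In the input Fabp5 held 12.1 to 34.3 CPM without odour, 8.80 to 11.6 with NCD, 6.08 to 8.49 with Bacon and 6.93 to 11.1 with HFD, with no overlap between any odour and no odour. This separation was shared by 4.77% of genes for NCD, 13.8% for Bacon and 3.60% for HFD. The log2 change was -0.84 with NCD (adjusted p = 0.0112), -1.33 with Bacon (adjusted p = 0.000265) and -1.01 with HFD (adjusted p = 0.0059), and the Bacon call was lost without Bacon replicate 1 (-1.28, adjusted p = 0.00114). Without replicate 4 of the no-odour group, at 34.3 CPM, the changes were smaller, at -0.48 with NCD (adjusted p = 0.0157), -0.98 with Bacon (adjusted p = 1.74e-05) and -0.65 with HFD (adjusted p = 0.00291). The no-odour inputs of replicates 4 and 6, highest in Fabp5, were also those with adipocyte markers at 5.96 and 5.26 CPM. Most of the sum of 5.96 CPM was a single gene, Pck1, which reached 5.40 CPM without odour. Pck1 was the 1 marker of these 5 that could be tested in the input. It was lower with any odour (-3.28, adjusted p = 0.000468). In the no-odour inputs of replicates 1, 2 and 3 the list summed to 0.358, 0.450 and 0.650 CPM. These lay within the odour inputs (0.332 to 1.10 CPM), so only replicates 4 and 6 were high. The other 4, Adipoq, Plin1, Cidec and Lep, averaged near the floor. The part of these markers in the Fabp5 result was not tested. In the ratio Fabp5 changed by 0.36 with NCD (adjusted p = 0.29), 0.67 with Bacon (adjusted p = 0.0381) and 0.50 with HFD (adjusted p = 0.145). Those values came to 0.13, 0.44 and 0.27 without replicate 4 of the no-odour group.

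**Figure D4:**
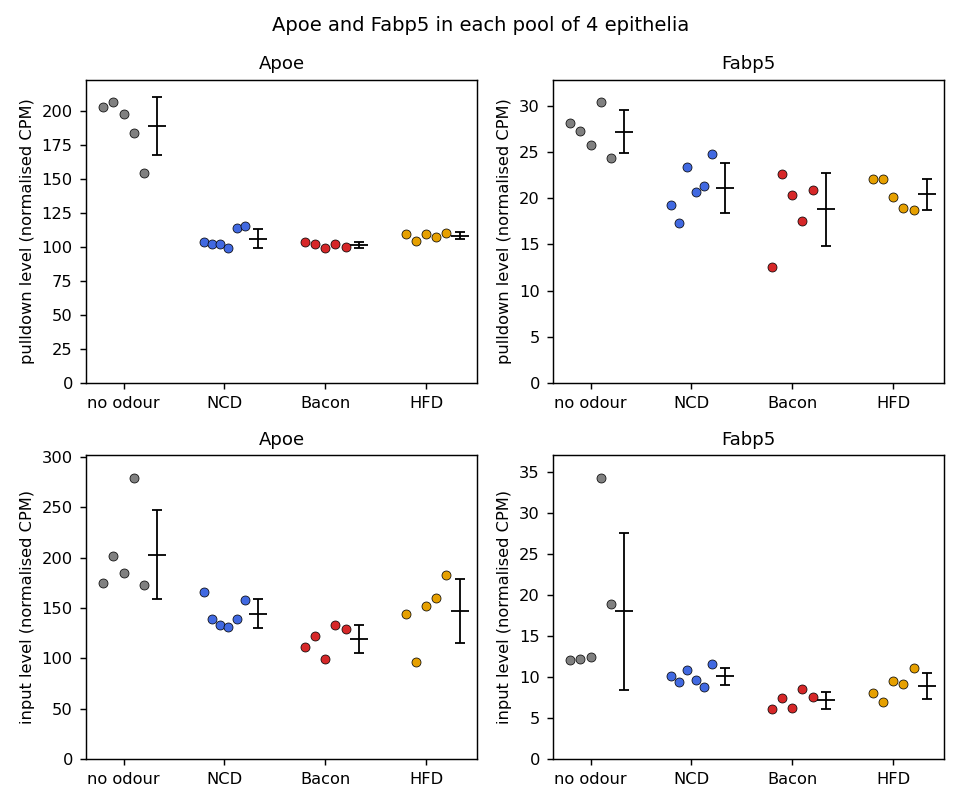
Normalised CPM of Apoe and Fabp5 in the pulldown (upper row) and input (lower row) of each pool by odour, with the group mean and SD beside the points. In the Apoe pulldown panel the 5 pools without odour (154.3 to 206.5 CPM) lie above the 16 odour pools, and in the Fabp5 input panel replicate 4 without odour, at 34.3 CPM, is far above all others.

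Over the 3 odours together, the inputs of Fabp5 (-1.06, adjusted p = 0.000199), Apoe (-0.57, adjusted p = 0.000473) and Fabp7 (-0.32, adjusted p = 0.000351) were lower than without odour, and those of the 3 receptors did not pass (Cd36 0.06, Scarb1 -0.06, Scarb2 -0.08). Without replicate 4 of the no-odour group the change of Fabp5 was -0.70 (adjusted p = 8.26e-05) and that of Apoe, at -0.44, did not pass (adjusted p = 0.0059). With all pools 3 of 6 members passed, where 12.0% of all 20451 genes tested passed. With Bacon alone it was also 3, and with HFD and NCD 0 of 6, where 0.963% and 0.998% of genes passed (edgeR, 3 members each at an unadjusted 0.05, and DESeq2 called 1 and 0). Once ribosomal RNA share entered the model, 0 of the 6 passed in any input comparison (adjusted p of Fabp5 with Bacon 0.832), and the calls among all genes fell from 2452 to 4 for the 3 odours together. In the inputs, odour and ribosomal RNA share cannot be told apart.

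**Figure D5:**
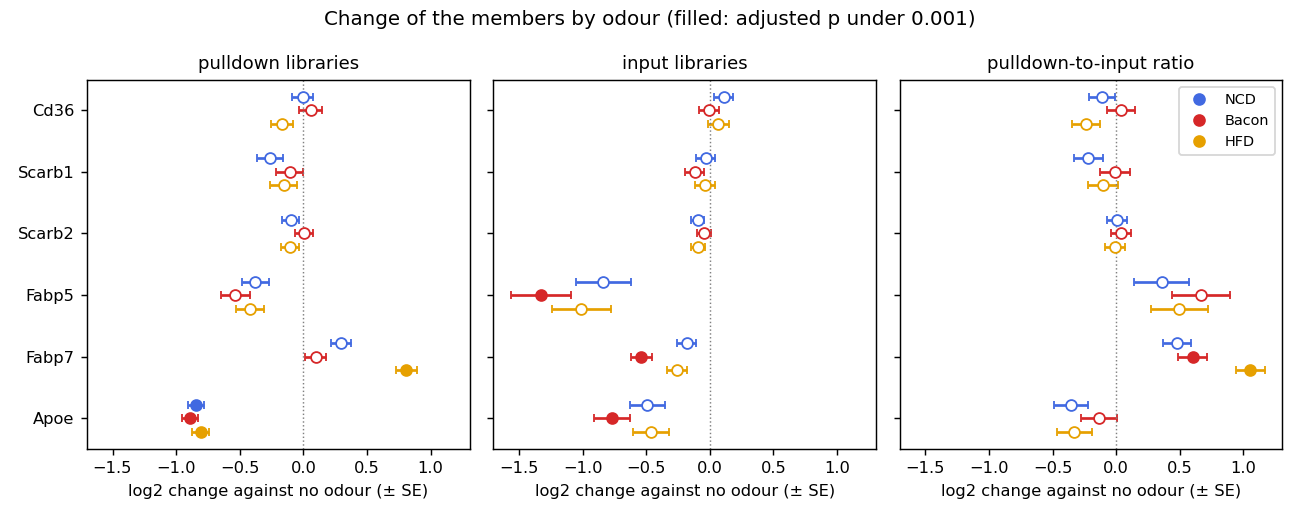
Log2 change of each member from no odour in the pulldown libraries, the input libraries and the pulldown-to-input ratio, by odour, with bars of ± SE and filled points for adjusted p under 0.001. Fabp7 with HFD is filled in the pulldown (0.81) and in the ratio (1.05), and Apoe is filled with all 3 odours in the pulldown.

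Other genes of lipid handling, 74 in 6 lists, were read beside the members. In the ratio 62 could be tested. Against no odour, 0 passed with NCD by edgeR (20 at an unadjusted 0.05), and 1 passed in each direction with Bacon and with HFD. Over all genes, 0.524%, 3.78% and 1.22% passed with NCD, Bacon and HFD. Soat1, which esterifies cholesterol for storage, was higher (0.62 with Bacon, adjusted p = 0.000822, and 0.75 with HFD, adjusted p = 0.000296), with median pulldowns of 15.9, 20.4, 28.6 and 27.1 CPM for no odour, NCD, Bacon and HFD. Lrp1, an endocytic lipoprotein receptor that binds apolipoprotein E, was lower (-0.68, adjusted p = 0.000339, and -0.65, adjusted p = 0.000926), with median pulldowns of 81.2, 43.5, 47.5 and 42.3. The median log2 change of the 62 genes was -0.16, -0.13 and -0.15 with NCD, Bacon and HFD, against medians of all genes between -0.01 and 0.00.

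Without odour, 9 of these 62 genes were enriched in the pulldown and 14 depleted, beside 19.8% and 16.0% of all genes, and the median log2 ratio was 0.03 against 0.01 for all genes. Of the 11 fatty acid receptors and lipid-sensing transcription factors tested, 4 were enriched and 0 depleted: Nr1h2 (0.90), which encodes the oxysterol receptor LXR beta, Ppard (0.72), Srebf2 (0.54) and the fatty acid receptor gene Gpr84 (2.36). From the other lists, Lrp8, Acsl5, Slc27a1, Abca7 and Pnpla2 passed with log2 ratios of 0.25 to 0.65. Depleted genes included the relatives of Fabp7 that carry retinoic acid, Crabp1 (-1.19) and Crabp2 (-0.41). The lipoprotein and lipase genes Apod (-0.97), Lpl (-0.80), Clu (-0.64) and Lipa (-0.48) were depleted as well, as were Cpt1a (-0.91), Acsbg1 (-0.89), Soat1 (-0.86), Plin2 (-0.71), Cav1 (-0.65), Dgat2 (-0.62) and Slc27a2 (-0.34).

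In the input 57 of the listed genes could be tested. Over all genes, 12.0% passed for the 3 odours together, 13.7% with Bacon, 0.963% with HFD and 0.998% with NCD. Over the 3 odours 3 were higher, Vldlr (0.39), Acsl6 (0.33) and Nr1h2 (0.28), and 5 were lower, among them Dbi (-0.86), Npc2 (-0.60), Crabp1 (-0.57) and Apoc1 (-0.46). The median was -0.05, against -0.01 for all genes. With Bacon 6 were higher and 7 lower, 4 of the latter among the 6 intracellular lipid-binding proteins tested, including Dbi (-1.11), Crabp1 (-0.89) and Crabp2 (-0.55). The others were Npc2 (-0.75), Apoc1 (-0.75) and Clu (-0.52) on the lower side and Lrp8 (0.72), Vldlr (0.58), Lrp2 (0.57), Acsl6 (0.40), Sort1 (0.34) and Nr1h2 (0.25) on the higher. With HFD 1 passed, Nr1h2 (0.31), and with NCD 0 by edgeR (27 at an unadjusted 0.05). For these genes too, odour and ribosomal RNA share cannot be told apart in the inputs.

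The genes most like Cd36 across the 21 pools were sought among 15648 genes with a mean of at least 1 CPM. For the log2 ratio, the 5 highest Pearson correlations were those of Prdx6 (0.928), a peroxiredoxin gene, Anxa7 (0.923), Cbr2 (0.903), a carbonyl reductase gene of the supporting cell list, Olfml3 (0.900) and Gstm1 (0.888), a glutathione transferase gene. For the input level they were those of Pon1 (0.929), which encodes a lipoprotein-bound paraoxonase, Atp1b1 (0.922), a sodium pump subunit, Cyp2f2 (0.907), a cytochrome P450, Olfr53 (0.883), an odorant receptor gene, and Depdc7 (0.871). The points share libraries and depth, and a pool that stands apart raises such values. Without Bacon replicate 1, Prdx6 correlated with Cd36 in the ratio at 0.871 and Cbr2 at 0.825. Scarb1 had a correlation of 0.481 with Cd36 in the ratio and Scarb2 one of 0.368.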

How the data were processed

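The authors prepared libraries with the Ovation RNA-Seq System and Nextera XT, ran the nf-core RNA-seq pipeline and deposited a merged table of Salmon estimated counts per gene (GRCm38, GENCODE M21), not normalised. Of these expected counts 30.9% were not whole, and they were rounded here. All 42 library columns were matched by title. Salmon shares reads of similar genes between them, which touches Fabp5 most.

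Counts were tested with edgeR 4.0.16 (R 4.3.3): TMM factors (0.817 to 1.137), filterByExpr with a minimum count of 10, robust quasi-likelihood tests and Benjamini-Hochberg adjustment over all genes tested. The ratio model used all libraries with a term per pool and pulldown-by-odour terms (21168 genes, biological coefficient of variation 12%), and the input model the 21 inputs with odour alone (20451 genes, 11.7%). A model of the 21 pulldowns (19765 genes) was added after seeing the data, as was the search for genes most like Fabp7. All tests are two-sided. The threshold, adjusted p under 0.001, is that of the study, which divided pulldown by input counts per sample before DESeq2. Normalised CPM divide counts by the library total times its TMM factor, and log2 values of single pools use a prior count of 0.5.

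Members and lists were chosen with earlier results of these data known. All 6 members were named throughout, with listed genes of adjusted p under 0.001 (at most 6 a list) and the 5 genes most correlated with Cd36. Some listed genes are counted but not reported here by name. No pair of replicates agreed within counting noise (chi-square divided by its degrees of freedom at least 3.50). The models were tested on simulated data. Alternatives were DESeq2 1.42.0, its size factors, limma 3.58.1 on the log ratio, no filter, no pool term, a replicate block, only the groups compared, ribosomal RNA genes left out or their share as a term, a threshold of 0.05, and leaving out each pool. Python 3.11.15, numpy 2.4.6, pandas 2.3.3 and matplotlib 3.10.9 were used for summaries and figures.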

Additional observations from a re-analysis of the deposited data

Results flagged for a closer look

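Of 72 groups of pools examined for a value far from the others, 5 held one, where chance alone gives about 1 in 20. The log2 ratio of Cd36 in replicate 4 without odour was -1.228, against -0.874 to -0.733 in the other 4 pools, and the input of that pool was the highest of its group for every member but Scarb2. The log2 ratio of Scarb2 in replicate 1 without odour was -0.644, against -0.425 to -0.336. Fabp7 in Bacon replicate 1 had a log2 ratio of -0.311, against -0.910 to -0.742 in the other Bacon pools, and a pulldown of 58.529 CPM, against 41.389 to 43.946. Fabp7 in the input of replicate 4 without odour was 141.398 CPM, against 97.567 to 107.355. The effect of odour on the Fabp7 ratio differed between HFD and NCD by 0.578 (adjusted p = 0.025), past 0.05 but not past 0.001.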

How the results depend on the processing

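The number of members called, out of 6, changed as follows. At adjusted p under 0.05 it was 3 for the input with HFD, 2 with NCD, 2 for the pulldown with Bacon and 3 with NCD, 2 for the ratio with Bacon, 1 with NCD and 1 for HFD against NCD. DESeq2 gave 1 for the input with HFD, 2 for the pulldown with Bacon and 1 for the ratio of HFD against NCD. Fitting only the groups compared gave 0 for the pulldown of HFD against Bacon, 2 with NCD, 0 for the ratio with Bacon and 1 for HFD against NCD, and limma gave 0 for the ratio with Bacon. The Fabp5 call in the pulldown against input was also lost with only those groups (0.677), limma (0.723), no filter (0.684) and no pool term (0.598). The ribosomal RNA term gave 0 for the input with Bacon and with any odour and 0 for the ratio with Bacon. Leaving out a pool gave 1 to 3 for the input with Bacon, 2 to 3 with any odour, 4 to 5 for the pulldown against input without odour, 1 to 2 for the pulldown with Bacon, 1 to 3 with NCD, 0 to 1 for HFD against NCD and 0 to 1 for the ratio with Bacon.

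Directions that turned were those of small changes, other than Apoe in the input. With the ribosomal RNA term, input changes became 0.049 (Cd36), 0.201 (Scarb1), 0.017 (Scarb2) and 0.118 (Apoe) with Bacon, 0.202 (Scarb1) and 0.202 (Apoe) with HFD, 0.208 and 0.179 with NCD, and 0.203 and 0.166 with any odour. The same term gave ratio changes of -0.018 for Cd36 with Bacon, 0.131 (Fabp5) and 0.030 (Apoe) for HFD against Bacon, and an Apoe ratio without odour of 0.099. For Scarb1 with Bacon the ratio change was 0.001 with DESeq2's size factors, 0.002 with DESeq2, 0.006 without a filter, 0.005 without a pool term, 0.014 with only the groups compared and 0.007 without ribosomal RNA genes, and for Scarb2 with NCD -0.018 without a filter. Leaving out a pool gave -0.059 to 0.076 for the Cd36 input with Bacon, and for the Scarb1 input -0.104 to 0.017 with HFD and -0.062 to 0.005 with NCD. It gave -0.022 to 0.135 for the Fabp7 pulldown with Bacon. In the ratio with Bacon it gave -0.072 to 0.084 (Cd36), -0.074 to 0.061 (Scarb1) and -0.015 to 0.076 (Scarb2). For Scarb2 it gave -0.065 to 0.017 with HFD, -0.046 to 0.031 with NCD, -0.018 to 0.068 for Bacon against NCD and -0.051 to 0.010 for HFD against NCD. For Apoe it gave -0.102 to 0.108 for HFD against NCD and -0.156 to 0.038 without odour. The cause of these turns was not tested.

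Replicate numbers did not pair the pools: deviations of same-numbered pools correlated from -0.29 to 0.32 in the inputs and from -0.395 to 0.215 in the ratio. A replicate block left 86 of 96 results on the same side. With it, 1 member was called for the input with any odour (Apoe -0.562 and Fabp7 -0.322 were lost), 0 for the pulldown of HFD against NCD (Fabp7 0.503, adjusted p = 0.00128) and 0 for the ratio with Bacon (Fabp7 0.609, adjusted p = 0.00126). Apoe in the input with Bacon was -0.759 (adjusted p = 0.00109), Cd36 there 0.001, and Apoe in the ratio of HFD against NCD -0.011. Each member held at least 210 counts in every library.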

Other observations

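The genes whose log2 ratio followed that of Fabp7 most closely over the 21 pools were Mmd2 (Pearson r = 0.895), the odorant receptor gene Olfr1297 (0.884), 1700019D03Rik (0.881), Cfl2 (0.880) and Ociad2 (0.872), a search chosen after seeing the data. Within odour groups the correlations were 0.468 for Mmd2 and 0.633 for Olfr1297. Their median pulldowns were highest with HFD, at 5.81 CPM for Mmd2 (3.35 without odour, 3.80 with NCD, 3.05 with Bacon) and 5.58 for Olfr1297 (2.21, 2.32 and 2.50). In the input, the closest genes to Fabp7 were Cops6 (0.966), Skp1a (0.959), H3f3a (0.954), 1110004F10Rik (0.954) and Sub1 (0.952), and Fabp5 correlated with Fabp7 at 0.846. These are descriptions over pools that share odour and ribosomal RNA share.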
